A study of Mus musculus with 4 samples.

Results

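The nuclear genes for the subunits of oxidative phosphorylation were read as a group in mice labelled as lacking Adar1, alone or together with Mavs. Members were all protein-coding symbols that begin with Nduf followed by a, b, c, s or v, with Uqcr, with Cox4 to Cox8 or with Atp5, together with Sdha to Sdhd and Cyc1, leaving out the Ndufaf assembly factors and names that carry -ps. This gave 86 genes of 20756 protein-coding symbols in the files. The rule uses names alone, but it was set with earlier results of these data known. By the complex that holds the product, 36 belong to complex I, 4 to complex II, 9 to complex III, 20 to complex IV and 17 to complex V. Ndufa4 and Ndufa4l2 were placed in complex IV, where the Ndufa4 protein is now known to sit, although both were named for complex I.

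Oxidative phosphorylation takes place in the inner mitochondrial membrane. Complexes I and II pass electrons from NADH and succinate to ubiquinone, complex III passes them to cytochrome c, and complex IV hands them to oxygen, while the proton gradient built on the way drives ATP synthesis by complex V. Most subunits are encoded in the nucleus and a smaller core in mitochondrial DNA, so a finished complex other than complex II needs both genomes. Liver is rich in mitochondria, and fetal liver also makes red cells, whose precursors lose their mitochondria as they mature.

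Total RNA was sequenced from 4 libraries, 1 per group, and every group is labelled as lacking Adar1. Whole embryos of strain C57B16/N at E11.5, the day of embryonic development, were labelled with the genotype Adar1-/- or Adar1-/- Mavs-/-. Embryonic livers of strain C57B6/J at E15.5 were labelled with the same pair of genotypes. ADAR1, the product of Adar, edits adenosine to inosine in double-stranded RNA. MAVS relays the signal of cytosolic RNA sensors from the mitochondrial outer membrane, so the comparison in each tissue asks what differs when Mavs is lost as well. Since each group has 1 library, the spread between animals is unknown and no test was made, and a level in bulk RNA cannot tell fewer cells of a type from less RNA per cell. How the alleles were made is not stated here.

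Levels are given as FPKM, that is fragments per kilobase of transcript scaled to a library's mapped fragments, summed over a gene's isoforms, so that levels can be compared between genes per length. Bounds in parentheses combine the deposited confidence bounds of a gene's isoforms, as the root of their summed squared distances from the values. This treats isoforms as independent, and the bounds cover estimation within a library only. A log2 ratio sets the library labelled Adar1-/- Mavs-/- over the one labelled Adar1-/-, on FPKM plus 1, after a single factor that brings to 0 the median over genes that reach 5 FPKM in both. A gene was counted where 1 of the paired libraries had at least 1 FPKM, and ratios of log2 1 or beyond, in either direction, were called 2-fold. Where values are given in pairs, the library labelled Adar1-/- comes first. Coordinates are of mm9, except those of the promoter stretches, which are of GRCm38.p6.

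Coverage per FPKM, which follows depth, ran from 3.48 in the embryo Adar1-/- library to 8.58 in the liver library of that label. The median distance of a member's value to its bound was between 4.49% and 5.78% of the value. In the liver library labelled Adar1-/-, 0 of 8 reference isoforms of Adar were above 0 and 42.3% of the gene was spanned by no isoform, with 5.56 FPKM from the rest. For the label Adar1-/- Mavs-/-, 3 of those 8 isoforms were above 0, no base was unspanned and Adar had 4.11 FPKM, so that library may go against its label at Adar. Mavs had 7.26 and 9.96 FPKM, which does not separate the labels, and every liver direction is one between libraries as labelled. All 11 hepatocyte markers were at 1 FPKM or more in both liver libraries, with a median log2 ratio of 0.08, from Trf, at 2347 and 1189.7 FPKM (-0.99), to Alb, at 4787 and 6648 (0.47), and 6 above 0. Of 8 macrophage markers, 3 were at least 2-fold higher for Adar1-/- Mavs-/-, beside 6.53% of all genes. These were Adgre1, at 5.35 and 11.8 FPKM (1.01), Cd68, listed at 0 and at 2.40 (1.76), and Vsig4, at 0.00858 and 1.93 (1.53). Vsig4 was at -0.01 with reference isoforms only, and Cd68 and Vsig4 were low in both libraries. Marco was at -0.39, and the summed levels of the 8 were 58.9 and 82.7 FPKM. The embryo Adar1-/- library was read on chromosomes 10 and 11 and chromosome 12 up to 11.7 Mb, and the embryo Adar1-/- Mavs-/- library on chromosomes 10 to 12 and chromosome 13 up to 44.7 Mb. Members outside these stretches were not analysed here in the library concerned. Adar, on chromosome 3, and Mavs, on chromosome 2, also lie outside them, so the embryo labels were not checked at these genes. The 11 embryo markers on chromosomes 10 and 11 went both ways between the embryo libraries. They ran from Hoxb2, at 3.36 FPKM and then listed at 0 (-2.12), to Hoxb9, at 5.91 and 8.48 (0.84). The embryonic globin Hba-x stood at 806 and 852 FPKM (0.50), while Col1a1 stood at 77.9 and 22.7 (-1.33).

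Both liver libraries held 85 of the 86 members, all but Cox4i1. The embryo Adar1-/- library held 10 and the embryo Adar1-/- Mavs-/- library 14. The 13 subunits encoded in mitochondrial DNA were not analysed here. Another 13 genes under the same names are not protein coding, mostly processed pseudogenes, and were left out, although some had high values. Atp5k-ps2 stood at 238 and 309.6 FPKM in liver against 16.3 and 23.7 for its parent Atp5k. Reads shared between a subunit gene and such a copy could be split between them, which makes the parent's level uncertain.

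Promoters of the subunit genes were read first for the letters of 3 factors known to act on genes of mitochondrial proteins. These were NRF1 (GCGCA, then any base, then GCGC), ETS factors such as GABPA (CCGGAAG) and YY1 (AAGATGGC), on both strands. RefSeq windows of GRCm38.p6, from 250 bases before to 50 after a start, matched 69 of the 86 members. The NRF1 letters were in windows of 17 members (24.6%, against 5.19% of 27025 genes). The ETS letters were in 16 (23.2%, against 9.93%) and the YY1 letters in 10 (14.5%, against 3.19%). At least 1 of them was in 37 (53.6%, against 16.4%), and no matches in the members' windows overlapped each other. Members' windows had a median GC content of 57.5%, against 52.7% for all windows. A match is a description of letters, not a bound site.

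The following stretches show how these letters are arranged in the 120 bases before the start of members whose values are given further on, at least 1 for each complex. Capitals mark matches to the 3 patterns, in either orientation.
Ndufa8, chr2:36049339-36049458, minus strand: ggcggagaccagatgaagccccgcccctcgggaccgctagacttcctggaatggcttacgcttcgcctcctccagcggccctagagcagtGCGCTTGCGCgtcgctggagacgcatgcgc
Sdha, chr13:74350241-74350360, minus strand: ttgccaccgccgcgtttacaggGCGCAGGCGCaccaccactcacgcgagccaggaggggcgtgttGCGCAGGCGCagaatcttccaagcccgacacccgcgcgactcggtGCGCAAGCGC
Sdhd, chr9:50603850-50603969, minus strand: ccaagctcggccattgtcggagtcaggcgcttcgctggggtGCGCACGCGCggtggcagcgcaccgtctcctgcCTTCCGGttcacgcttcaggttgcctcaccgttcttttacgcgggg
Uqcr11, chr10:80406822-80406941, minus strand: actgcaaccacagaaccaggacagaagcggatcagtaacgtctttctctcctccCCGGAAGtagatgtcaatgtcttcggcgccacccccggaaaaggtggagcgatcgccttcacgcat
Cox6a1, chr5:115348959-115349078, minus strand: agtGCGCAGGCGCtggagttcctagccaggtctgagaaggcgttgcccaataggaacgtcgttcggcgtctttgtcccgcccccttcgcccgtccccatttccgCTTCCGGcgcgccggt
Atp5h, chr11:115419920-115420039, minus strand: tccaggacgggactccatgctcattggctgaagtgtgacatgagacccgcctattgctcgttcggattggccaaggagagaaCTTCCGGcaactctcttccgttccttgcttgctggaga
Atp5j, chr16:84834977-84835096, minus strand: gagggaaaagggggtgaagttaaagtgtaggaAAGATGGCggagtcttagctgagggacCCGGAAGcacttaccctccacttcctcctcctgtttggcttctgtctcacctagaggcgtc

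Sdha held 3 NRF1 matches in this stretch, and Sdhd and Cox6a1 each held an NRF1 and an ETS match. Atp5j held a YY1 and an ETS match, Atp5h and Uqcr11 an ETS match, and Ndufa8 an NRF1 match. The ETS matches of Sdhd, Cox6a1 and Atp5h and the NRF1 match of Ndufa8 were on the other strand. The members printed here did not share a direction in liver. Atp5j, Atp5h, Sdhd and Uqcr11 had log2 ratios of 0.75, 0.63, 0.53 and 0.37, Sdha was at 0.03, and Cox6a1 and Ndufa8 were at -0.52 and -1.04. Over the counted members with a matched window, the 34 with a match had a median log2 ratio of 0.21 and the 30 without had 0.11.

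In liver the subunit genes were among the more abundant messages. Among those at 1 FPKM or more their median level was 48.6 and 43.3 FPKM, against 7.48 and 7.07 for protein-coding genes, and their median percentile was 93.1 and 91.3. Of the 85 held, 67 and 70 reached 10 FPKM and 16 and 20 reached 100 FPKM. Levels within a complex were spread widely, from 27.2 to 213 FPKM for the genes of complex III in the library labelled Adar1-/-.

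Cox7b, a small subunit of complex IV, was the most abundant member in both liver libraries, at 790.1 FPKM (747 to 833) and 1225 (1166 to 1284). Of these, 711 and 1095 FPKM came from a reference isoform of 180 bases, a length at which FPKM weighs few fragments heavily. Atp5b, the catalytic beta subunit of the ATP synthase head, led complex V at 601 FPKM (594 to 609) and 356 (353 to 359). Uqcrb, a small subunit of complex III, led that complex at 213 and 397 FPKM. Sdhd, a membrane anchor, led complex II at 57.2 and 83.3 FPKM, and Ndufv2, an iron-sulfur subunit, led complex I at 134 and 411 FPKM.

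**Figure D1:**
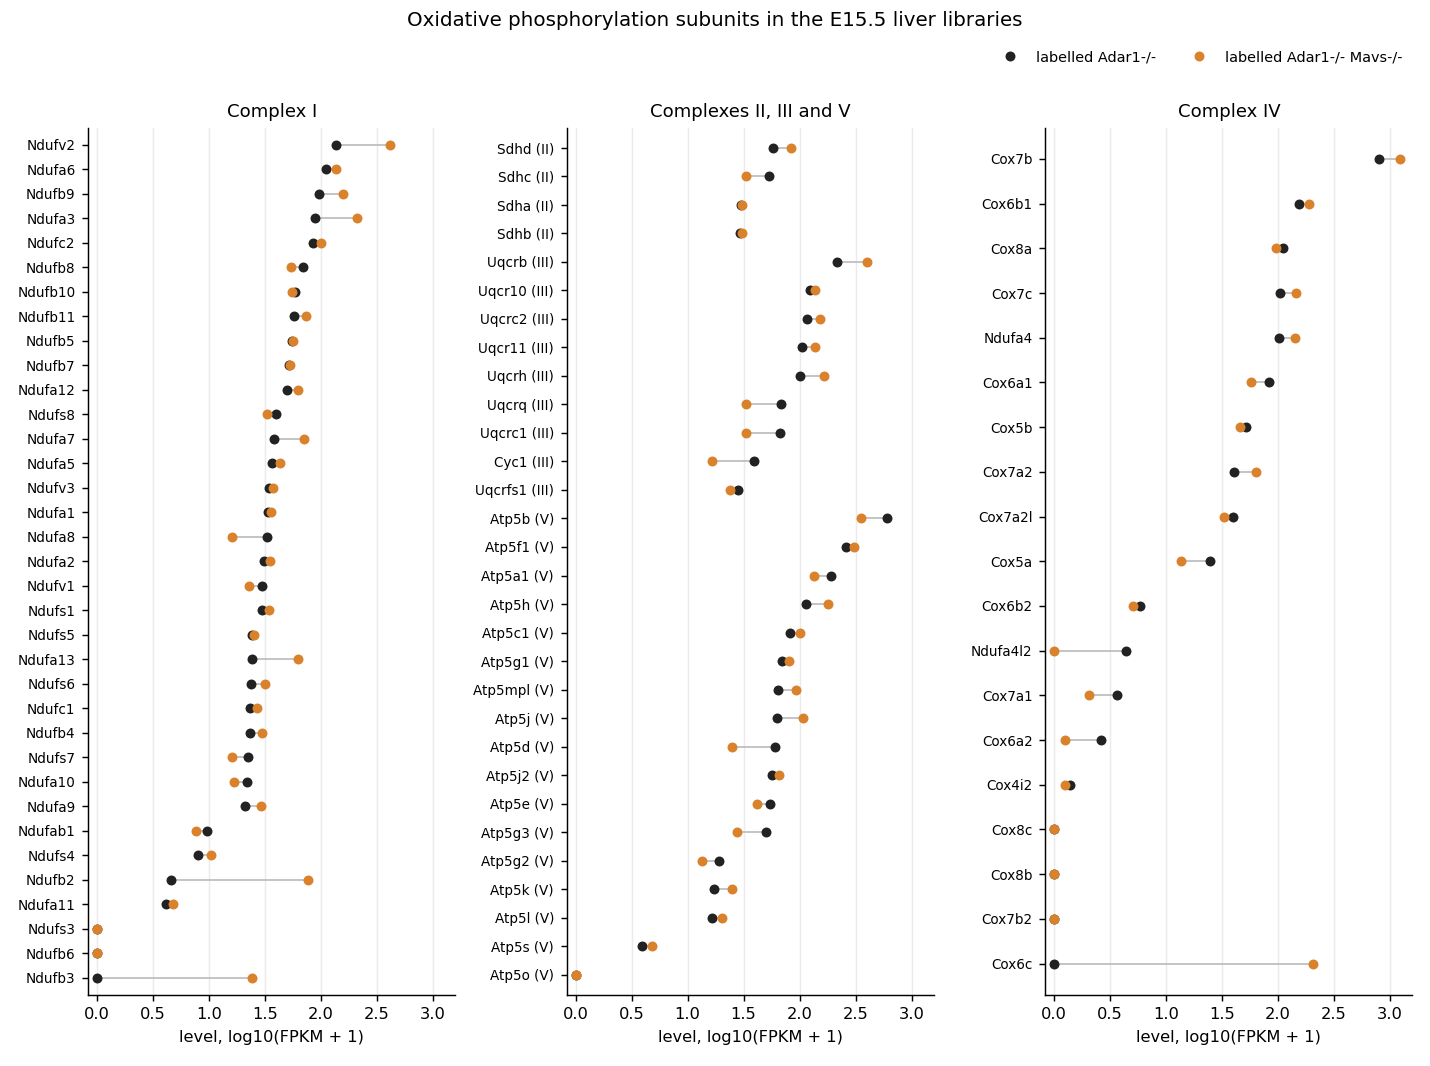
Level of the subunit genes held in liver, all but 1, as log10(FPKM + 1), in the library labelled Adar1-/- (black) and the library labelled Adar1-/- Mavs-/- (orange). Cox7b stands highest at 790.1 and 1225 FPKM, and Cox6c and Ndufb3 are at 0 in the first library alone.

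Some genes for widely used subunits were listed at 0. Ndufs3, a core subunit of complex I, Ndufb6, an accessory subunit of complex I, and Atp5o, the stalk subunit that binds the ATP synthase head, were listed at 0 in both liver libraries. An exact 0 of a widely used gene can be a failed estimate, and at the Atp5o locus the files held 78 isoforms of other or no symbol. Cox7b2, Cox8b and Cox8c, paralogs known from testis or muscle, were also listed at 0 in both.

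Over all members the liver log2 ratios had a median of 0.19, against -0.12 for all genes and -0.16 for protein-coding genes. Of 78 counted, 49 were above 0 and 29 below, a share above 0 of 62.8% against 42.0% of 13851 genes. Of those genes, 6889 reached 5 FPKM in both libraries, and the scaling sets their median ratio to 0. The rest are lower in at least 1 library, so the all-gene values are not matched to the members in level. All-gene medians given further on share this limit. At least 2-fold, 6 members were higher, beside 6.53% of all genes, and 7 were lower, beside 9.75%. Together these are 13 of 78, near the 16.3% of all genes. The split of 6 higher and 7 lower became 5 and 11 with TPM, taken over the named genes that both libraries share, and 8 and 4 with an upper quartile factor. Those scalings shifted the liver log2 ratios by -0.32 and 0.13, and under TPM the members' median was -0.13. Shares of all genes are given here for the scaling defined above alone. Counts of members under other scalings, centrings or isoform choices have no such share beside them. The combined bounds of the paired values lay apart for 40 members that were higher and 25 that were lower and overlapped for 13. The same count over all genes is not given, so it is not read as a trait of the members.

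By complex, the median log2 ratio was 0.21 for complex I, 0.06 for complex II, 0.14 for complex III, -0.20 for complex IV and 0.23 for complex V. Under TPM they were -0.10, -0.25, -0.18, -0.49 and -0.09, all below 0. TPM applies a single factor to all genes, so the ratios of other genes go down with them. Under GC centring complex IV was at 0.09. Under centring by transcript length complex III was at -0.05, and complexes I and V at 0.08 and 0.10. The summed level of complex V went from 1709 to 1569 FPKM with Atp5b and from 1108 to 1213 without it. That of complex I went from 1378 to 2056 FPKM with Ndufv2 and from 1244 to 1645 without it.

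**Figure D2:**
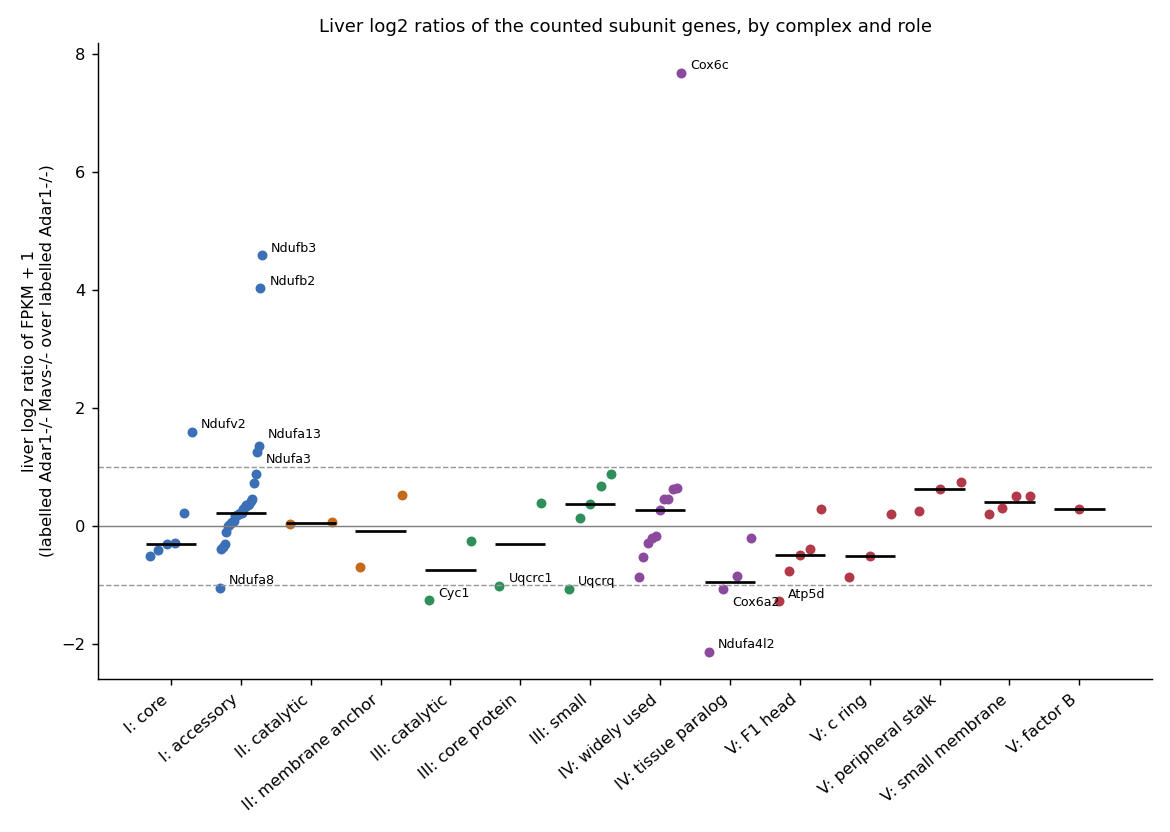
Liver log2 ratio of FPKM + 1 for the 78 counted subunit genes, by complex and role of the product; each point is a gene, bars are medians, and dashed lines mark 2-fold. Of these, 6 lie above and 7 below the dashed lines.

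Complex I genes differed by role. The core subunits, which carry the flavin and the iron-sulfur clusters, had a median of -0.30 with 2 of 6 counted above 0. The accessory subunits, which surround that core, had a median of 0.22 with 23 of 28 above 0. Under TPM the medians were -0.61 and -0.06, and under GC centring 0.04 and 0.38, so among the scalings and centrings run the core median lay below 0 except under GC centring, and the accessory median above 0 except under TPM.

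Among the core genes of complex I, Ndufs7, which carries the last iron-sulfur cluster before ubiquinone, had the lowest log2 ratio, with 21.4 FPKM (20.0 to 22.7) and 14.9 (13.6 to 16.1), -0.50. Ndufv1, which binds NADH and the flavin, had 28.8 and 21.6 FPKM (-0.41). Ndufs8, another iron-sulfur subunit, had 39.0 and 31.6 FPKM, -0.30, and 0.36 with reference isoforms only. Ndufs1, the largest iron-sulfur subunit, had 28.5 and 33.5 FPKM (0.22).

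Ndufv2 stood apart from the other core genes, at 134 FPKM (130.1 to 138) and 411 (392 to 430.1), a log2 ratio of 1.60. Of the second value, 324 FPKM came from an assembled isoform of 237 bases at one end of the gene (chromosome 17, 66450663 to 66450899). With reference isoforms only the log2 ratio was -0.64.

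The accessory genes of complex I held the remaining 4 higher members of that complex. Ndufa3, a small membrane subunit (chromosome 7, 3568975 to 3571765), had 86.9 FPKM (81.6 to 92.2) and 211 (202 to 219.5), a log2 ratio of 1.26 that rested on a single reference isoform of 343 bases in both libraries and was 0.94 with TPM. Ndufb3, of the membrane arm (chromosome 1, 58643228 to 58652808), was listed at 0 for Adar1-/- and had 23.2 FPKM (21.7 to 24.7) for Adar1-/- Mavs-/-. Ndufb2, of the same arm (chromosome 6, 39542573 to 39553381), had 3.61 FPKM, all from an assembled isoform of 18538 bases, and 75 FPKM (71.0 to 78.9) from a reference isoform of 455 bases with the deposited status LOWDATA, not OK. Its 6 reference isoforms were at 0 in the library labelled Adar1-/-.

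Ndufa13, also called GRIM-19 and known to bind STAT3 besides its place in complex I, had 23 FPKM (22.0 to 23.9) and 61.0 (57.8 to 64.2), a log2 ratio of 1.36. An assembled isoform of 524 bases at the edge of the gene gave 54.3 FPKM of the second value. The reference isoform alone had 23 and 6.69 FPKM, -1.65. Ndufa8, a subunit of the intermembrane face (chromosome 2, 35891846 to 35904926), was the only lower gene of complex I, with 32.0 FPKM (30.5 to 33.4) and 15.1 (14.0 to 16.1), -1.04, and was at -0.78 after GC centring.

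The other counted accessory genes lay between -0.40 (Ndufa10, at 20.8 and 15.6 FPKM) and 0.89 (Ndufa7, at 36.8 and 69.3). Ndufa6, the most abundant accessory gene for Adar1-/-, had 109 and 134 FPKM (0.29), and Ndufb9 had 94.3 and 157 (0.73). Ndufb5, of the membrane arm, had near equal levels of 54.5 and 54.8 FPKM. Ndufa1, a small membrane subunit, had 32.9 and 34.8 FPKM (0.07), but 1.76 with reference isoforms only, since an assembled isoform gave 23.4 FPKM of the first value.

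Complex II, which is also an enzyme of the tricarboxylic acid cycle, showed small ratios for its catalytic pair. Sdha, the flavin subunit, had 28.9 FPKM (28.2 to 29.6) and 29.8 (29.0 to 30.5), 0.03. Sdhb, the iron-sulfur subunit, had 28.1 and 29.9 FPKM (0.08). The membrane anchors went apart. Sdhd had 57.2 FPKM (55.7 to 58.7) and 83.3 (81.4 to 85.3), 0.53, whereas Sdhc had 52.1 FPKM (50.2 to 54.0) and 32.1 (30.4 to 33.7), -0.69. No gene of complex II reached 2-fold.

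Complex III held 3 of the 7 lower members. Cyc1, cytochrome c1 (chromosome 15, 76173953 to 76176364), had 38.2 FPKM (36.9 to 39.5) and 15.46 (14.3 to 16.6), -1.26, and -2.57 with reference isoforms only. Uqcrc1, a core protein (chromosome 9, 108838661 to 108851685), had 66.2 FPKM (64.3 to 68.1) and 32.5 (31.0 to 33.9), -1.01. Uqcrq, a small subunit beside cytochrome b (chromosome 11, 53241424 to 53244333), had 67.9 FPKM (63.6 to 72.2) and 32.0 (28.7 to 35.4), -1.07. After GC centring Uqcrc1 was at -0.59 and Uqcrq at -0.64. Uqcrc2, the partner core protein of Uqcrc1, went the other way, with 115 and 153 FPKM (0.40).

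The remaining small subunits of complex III were all above 0 under the scalings and centrings run, except Uqcr10 under TPM (-0.18) and with length centring (-0.05). Uqcrb, which lies near the ubiquinone pocket (chromosome 13, 67001553 to 67006314), had 213 FPKM (208 to 219) and 397 (389.6 to 405), 0.89. Uqcrh, the hinge protein beside cytochrome c1, had 101 and 164 FPKM (0.69), while its pseudogenes Uqcrh-ps1 and Uqcrh-ps2 had 64.4 and 94.1 and 142 and 198 FPKM. Uqcr11 had 104 and 135 FPKM and Uqcr10 124 and 137, log2 ratios of 0.37 and 0.14. Uqcrfs1, the Rieske iron-sulfur protein and catalytic partner of Cyc1, had 27.2 and 22.9 FPKM (-0.25). The catalytic pair had a median of -0.75 and the 5 small subunits of 0.37, and under TPM -1.06 and 0.05.

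Many subunits of complex IV exist as a widely used form and as a form of muscle, lung or testis. Of the widely used genes 11 were counted, 6 above 0 and 5 below, with a median of 0.28 and, under TPM, of -0.04. Cox6c, a widely used subunit (chromosome 15, 35855641 to 35868001), was listed at 0 in all 5 reference isoforms of the library labelled Adar1-/-. In the other library Cox6c had 206 FPKM (200.04 to 212), from 1 reference isoform of 503 bases with the deposited status LOWDATA, not OK. Its processed pseudogene Cox6c2 had 156 and 234 FPKM, and reads could be split between the copies, so no fold is given. In all, 3 of the 78 counted members were listed at 0 in 1 liver library (Cox6c, Ndufb3 and Ndufa4l2), beside 7.52% of genes. Among genes that reached 10 FPKM for Adar1-/- Mavs-/-, 1.65% were listed at 0 for Adar1-/-, and 2 of the 70 members at that level were, Cox6c and Ndufb3.

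The other widely used genes of complex IV lay within 2-fold. Cox7b was at 0.63, Cox7c had 103 and 143 FPKM (0.46), and Cox6b1 had 152 and 186 (0.28). Ndufa4 had 100.2 and 139 FPKM (0.46). Cox5a, on the matrix side of the complex, had the lowest log2 ratio of these, with 23.4 FPKM (21.9 to 24.8) and 12.4 (11.3 to 13.6), -0.87. Cox6a1 was at -0.52 (81.1 and 56.6 FPKM), Cox8a at -0.21 (109 and 94.4) and Cox5b at -0.18 (50.7 and 44.9).

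Shares within a paralog group do not depend on the scaling between libraries. Cox7a2, the widely used COX7A gene, made up 48.6% of the summed COX7A level for Adar1-/- and 65.4% for Adar1-/- Mavs-/-, at 39.1 and 62.0 FPKM. Cox7a2l, a factor of respiratory supercomplexes in the same group, had shares of 48.1% and 33.5%, at 38.7 and 31.7 FPKM.

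Of the tissue paralogs of complex IV, 4 of 8 held were counted and all 4 were below 0, except for Cox6b2 under GC centring (0.06). Cox6a2, the striated muscle form of COX6A, had 1.63 FPKM (1.24 to 2.02) and 0.253 (0.0752 to 0.430), a log2 ratio of -1.07, and held 1.98% and 0.445% of its group. Cox7a1, the muscle form of COX7A, had 2.65 FPKM (1.73 to 3.56) and 1.04 (0.352 to 1.73), -0.84. In the same libraries, 9 of 9 counted skeletal muscle markers were at least 2-fold lower for Adar1-/- Mavs-/-, beside 9.75% of all genes. Their median was -3.15 and their summed levels over 11 held were 167 and 11.9 FPKM, with Tnnc2 at 0 in both. Of 9 counted heart muscle markers 7 were, with a median of -1.83 and summed levels of 49.1 and 4.96 FPKM over 12. Their part in the muscle paralogs' values was not tested.

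**Figure D3:**
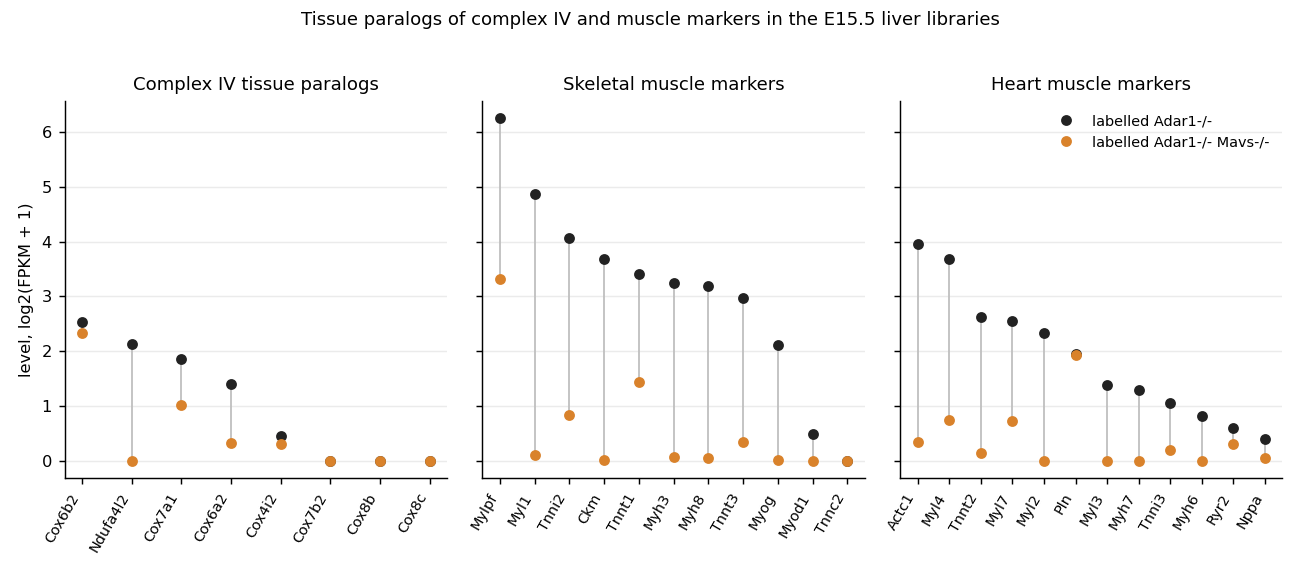
Levels as log2(FPKM + 1) in the liver library labelled Adar1-/- (black) and the library labelled Adar1-/- Mavs-/- (orange) for the tissue paralogs of complex IV, the skeletal muscle markers and the heart muscle markers. Cox6a2 and Cox7a1 are lower in the second library, as are 9 of 9 counted skeletal muscle markers, while Cox6b2 is at 4.797 and 4.05 FPKM.

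Cox6b2, the testis form of COX6B, had 4.797 and 4.05 FPKM (-0.20), and -2.34 with reference isoforms only. Cox4i2, the lung form of COX4, had 0.382 and 0.240 FPKM and was not counted. Ndufa4l2, a hypoxia-induced relative of Ndufa4, had 3.38 FPKM for Adar1-/- and was listed at 0 for Adar1-/- Mavs-/-. That value came from an assembled isoform of 6243 bases (chromosome 10, 126951995 to 126959491) that runs on beyond the gene into the Shmt2 locus, and the reference isoform of Ndufa4l2 was at 0.

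Complex V genes differed by the part of the enzyme. In the F1 head, which makes ATP, 4 of 5 genes were below 0 with a median of -0.49. Atp5b had the 601 and 356 FPKM given above (-0.76), and Atp5a1, the alpha subunit, had 189 FPKM (187 to 191) and 135 (133 to 137), -0.49. Atp5e, the epsilon subunit of the central stalk, had 53.4 and 40.9 FPKM (-0.38). Atp5c1, the gamma subunit, was above 0 at 81.9 and 101 FPKM (0.29), and just below under TPM (-0.03).

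Atp5d, the delta subunit of the central stalk (chromosome 10, 79601377 to 79608563), was the only member of complex V past 2-fold, with 59.3 FPKM (56.9 to 61.6) and 23.9 (22.7 to 25.2), -1.28. An isoform of 781 bases gave 34.0 FPKM of the first value and was at 0 in the other library. The isoform of 931 bases had 25.3 and 23.9 FPKM, and with isoforms of status OK only the log2 ratio was -0.08.

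The peripheral stalk and the small membrane subunits lay on the other side. All 3 counted stalk genes were above 0, with a median of 0.63. Atp5j, coupling factor 6, had 62.3 FPKM (59.4 to 65.2) and 106 (102 to 109.8), 0.75. Atp5h, subunit d, had 114 and 177 FPKM (0.63), and Atp5f1, subunit b, had 258 and 308 (0.25, but -0.08 under GC centring). The 4 small membrane genes were also above 0, with a median of 0.41. Atp5k had 16.3 and 23.7 FPKM, Atp5mpl 63.7 and 91.4, Atp5l 15.4 and 19.4 and Atp5j2 55.8 and 64.7, log2 ratios of 0.51, 0.51, 0.31 and 0.20. Under TPM the F1 head, the stalk and the small membrane genes had medians of -0.81, 0.31 and 0.10, with 2 of 3 stalk and 3 of 4 small membrane genes above 0.

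The c ring of complex V is built from 1 protein that 3 genes encode, with different mitochondrial targeting sequences. Atp5g1 had 69.0 and 79.6 FPKM (0.20, but -0.12 under TPM), Atp5g2 had 18.0 and 12.4 (-0.51), and Atp5g3 had 48.9 FPKM (46.8 to 51.0) and 26.5 (24.7 to 28.4), -0.87. Their summed level was 136 and 119 FPKM. The share of Atp5g1 in it was 50.8% and 67.2%, that of Atp5g3 36.0% and 22.4%, and that of Atp5g2 13.2% and 10.48%. Atp5s, which encodes the regulatory factor B, had 2.89 and 3.78 FPKM (0.29, and 0.96 with reference isoforms only).

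Base composition and transcript length moved with the liver values. Across 75 counted members above 0 in both libraries, the log2 ratio and transcript GC content had a Spearman rho of -0.35 and a Pearson r of -0.23, and across 12809 genes of the same pair of libraries -0.41 and -0.36. These are correlations across genes of 1 library pair, which are not independent replicates, and are given as a description. Among the 25 members of lowest GC content, from 38.2% to 49.9%, 21 were above 0, with a median of 0.29. Among the 25 of highest GC content, from 54.8% to 61.1%, 12 were above 0, with a median of -0.10. After GC centring, 7 members were at least 2-fold higher and 1 lower, Ndufa4l2.

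For transcript length, the members' log2 ratio had a Spearman rho of -0.29 and a Pearson r of -0.22, and that of all genes -0.16 and -0.14, over the same genes. Among the 25 shortest members, from 180 to 511 bases, 22 were above 0, with a median of 0.31. Among the 25 of middle length and the 25 longest, 12 and 13 were above 0, with medians of -0.10 and 0.03. Centring by length left the members' median at 0.06, in place of 0.19. It left the accessory genes of complex I at 0.11, with 17 of 28 above 0, and the counts past 2-fold at 6 and 7.

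**Figure D4:**
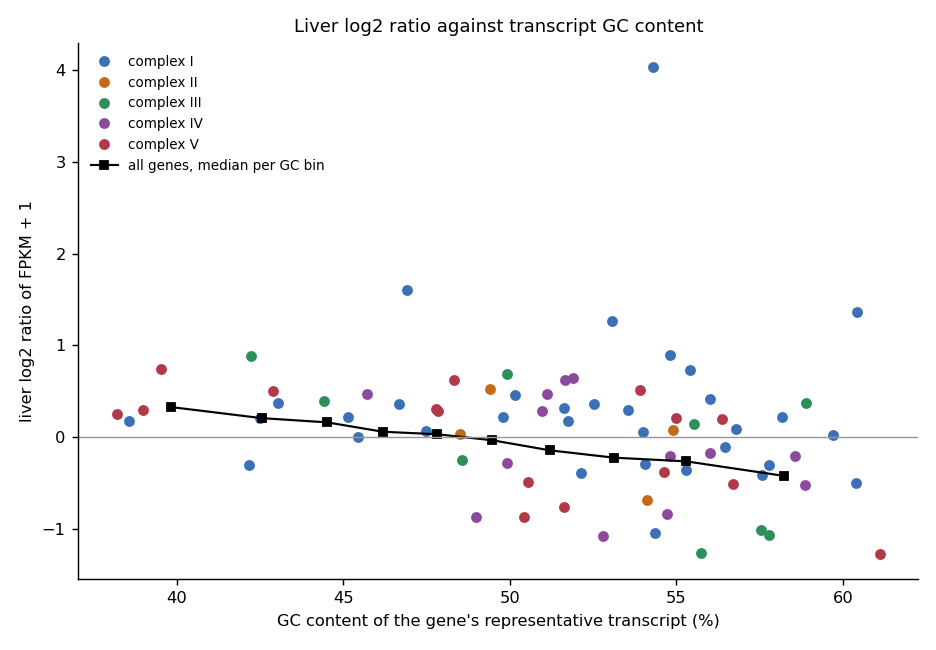
Liver log2 ratio of FPKM + 1 against GC content of the transcript for 75 counted subunit genes above 0 in both liver libraries, coloured by complex; black squares are the medians of all genes in 10 GC bins, which go from 0.33 to -0.42. Subunit genes of higher GC content have lower ratios, with wide scatter.

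The genes around the complexes gave levels to read these ratios against. Of 55 assembly factors listed, 53 were counted in liver, with a median of -0.10. At least 2-fold, 6 were higher, beside 6.53% of all genes, and 7 lower, beside 9.75%. The 18 factors of complex I assembly had a median of 0.01. They ran from Foxred1, at 4.43 FPKM and then listed at 0, to Nubpl, which delivers iron-sulfur clusters, at 2.40 and 11.8 FPKM (1.91, and 0.49 with reference isoforms only). The 4 factors of complex II assembly had a median of -0.13, from Sdhaf2 (-0.30, but 0.50 with reference isoforms only) to Sdhaf4 (2.08, and -0.18 with the same restriction). The 6 of complex III assembly had a median of 0.03, from Bcs1l (-0.47, and -0.78 with reference isoforms only) to Ttc19, which was listed at 0 for Adar1-/- and had 6.77 FPKM for Adar1-/- Mavs-/-. The log2 ratio of Ttc19 was 0 with reference isoforms only, which were listed at 0 in both libraries.

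Of 22 counted complex IV assembly factors, 6 were lower by 2-fold or more, beside 9.75% of all genes, and 2 were higher, beside 6.53%. Their median was -0.12. Cox10, which makes a precursor of heme a, had 6.65 and 1.67 FPKM (-1.53), and Cox16 was listed at 0 for Adar1-/- and had 26.4 FPKM for Adar1-/- Mavs-/-. All 3 complex V assembly factors were below 0, from Atpaf2 (-0.58, and -0.34 with reference isoforms only) to Tmem70 (-0.10), the latter less in size than the upper quartile shift. Of 4 counted electron and nucleotide carriers 1 was lower, beside 9.75% of all genes. That was Slc25a3, the mitochondrial phosphate carrier, with 119.7 and 22.6 FPKM, a log2 ratio of -2.36, while Cycs, cytochrome c, had 10.8 and 16.2 (0.54).

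The 17 tricarboxylic acid cycle genes, all counted, had a median of -0.12, with 7 above 0. At least 2-fold, 1 was higher and 0 lower, beside 6.53% and 9.75% of all genes. These genes ran from Idh2, at 40.2 and 21.0 FPKM (-0.92), to Dlat of the pyruvate dehydrogenase complex, at 11 and 37.8 (1.68, but -1.23 with reference isoforms only). The 13 counted regulators of mitochondrial biogenesis had a median of -0.03, with 1 higher and 0 lower, beside the same shares of all genes. Esrra, a nuclear receptor, was listed at 0 for Adar1-/- and had 1.78 FPKM for Adar1-/- Mavs-/-. Among the factors whose letters were searched, Nrf1 had 7.21 and 14.3 FPKM (0.89), Gabpa 20.8 and 30.2 (0.51) and Yy1 20.3 and 13.4 (-0.57). With reference isoforms only Nrf1 was at 2.87, Gabpa at 0.50 and Yy1 at 0. Isoforms of Yy1 matched in M21 were listed at 0 in both liver libraries, and those of Nrf1 were for Adar1-/-.

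In E11.5 embryos 10 members could be read in both libraries, and 9 were counted, Ndufa4l2 being listed at 0 in both. Of these, 1 was at least 2-fold higher in the Adar1-/- Mavs-/- library, beside 6.42% of all genes, and 0 were lower, beside 9.76%, which is 1 of 9 either way beside 16.2%. None was listed at 0 in 1 library, beside 5.95%. The median was -0.06, against -0.12 for all 1916 genes counted. With FPKM as deposited the ratios shift by -0.42 and with TPM by -0.94, which puts the median at -0.48 and -0.99, and under TPM 0 members were higher and 4 lower.

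Uqcrq was the higher gene in embryos. It had 42.2 FPKM (36.6 to 47.8) in the Adar1-/- library and 93.9 FPKM (87.6 to 100.3) in the Adar1-/- Mavs-/- library, a log2 ratio of 1.55, which was 1.14 as deposited and 0.62 with TPM. Its liver ratio of -1.07 went the other way. The difference between tissues was not tested.

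The other genes read in embryos lay within 2-fold. Atp5b was the most abundant member there, with 1184 FPKM (1166 to 1201) and 1459 (1438 to 1479.9), 0.72. Atp5h had 363 and 365 FPKM, which the scaling put at 0.43, and Ndufa12, an accessory subunit of complex I, had 34.3 and 32.9 (0.35), beside 48.3 and 60.9 in liver (0.32). These 3 ratios were -0.22, -0.51 and -0.56 with TPM.

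The remaining ratios in embryos lay just below 0. Atp5d had 149 and 97.8 FPKM (-0.19), Atp5g1 had 54.8 and 35.6 (-0.20), Ndufs7 had 52.3 and 36.7 (-0.09), and Uqcr11 had 152 and 106 (-0.10). Uqcr10 had 239 and 171 FPKM (-0.06), with wide bounds in the Adar1-/- library, 59.3 to 519. An upper quartile factor adds 0.14 to each ratio, which puts those of Ndufs7, Uqcr11 and Uqcr10 above 0.

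Members that only the Adar1-/- Mavs-/- embryo library held among the embryo libraries were Atp5mpl (75.4 FPKM), Uqcrfs1 (29.1), Atp5s (0.928) and Cox8c, which was listed at 0. Of the assembly factors, 8 were counted in embryos, with a median of 0.28. At least 2-fold, 0 were higher, beside 6.42% of all genes, and 1 was lower, beside 9.76%. Cox10 was the lower one, with 9.91 and 2.58 FPKM (-1.29). Slc25a3 had 136 and 159 FPKM (0.64) in embryos, against 119.7 and 22.6 in liver.

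**Figure D5:**
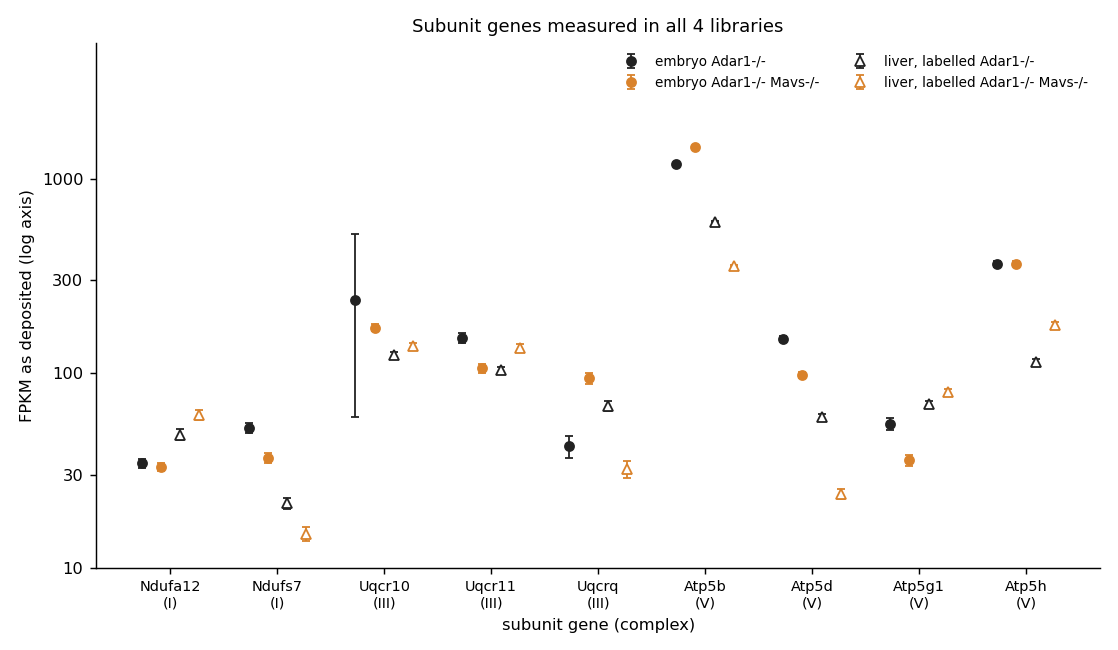
FPKM as deposited, on a log axis, of the 9 subunit genes above 0 in all 4 libraries. Circles are embryo and triangles liver libraries, black labelled Adar1-/- and orange Adar1-/- Mavs-/-. Bars are the bounds combined from the deposited isoform bounds. Uqcrq is at 42.2 and 93.9 in embryos and at 67.9 and 32.0 in liver, and Atp5b is the highest of the 9 in every library.

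Between tissues, strain and age differ together with the tissue and cannot be told apart. For the Adar1-/- label, 10 members were counted with a liver over embryo median of -0.39, against -0.16 for all genes. Of these, 2 were at least 2-fold higher in liver, beside 24.9% of genes, and 1 was lower, beside 28.9%, or 3 of 10 beside 53.8% either way. Uqcrq had a log2 ratio of 1.02 and Atp5h of -1.31, and the other higher gene was Ndufa4l2, listed at 0 in the embryo.

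For the Adar1-/- Mavs-/- label, 12 members were counted with a median of -0.19 (0.09 with length centring), against 0.02 for all genes. Of these, 3 were higher in liver, beside 29.5%, and 4 lower, beside 27.2%, or 7 of 12 beside 56.7% either way. None was listed at 0 in 1 library, beside 11.8%. Atp5b and Atp5d were below 0 under both labels, at -0.62 and -0.97 for Adar1-/- and at -1.90 and -1.85 for Adar1-/- Mavs-/-. Atp5g1 was above 0 under both, at 0.68 and 1.28, a sign that TPM, which shifts the ratios by -1.90 and -0.88, turns for the first label.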

How the data were processed

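Total RNA from 4 mouse libraries was analysed. The deposited values are FPKM per isoform with lower and upper bounds and a status, per the file headers. The deposited coverage values are read depths and were used for depth alone. The submitters' processing notes list TopHat 1.4.0, Cufflinks 2.2.1, edgeR 3.4.2 and mm9 with no role for each, and no edgeR output was used. Read totals and strand: not given in the sources used here.

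Symbols came from GENCODE M21 through transcript identifiers, and other isoforms took the symbol whose reference isoforms they overlapped best. "Reference isoforms only" means those matched in M21. FPKM were summed per symbol, values of the second library were multiplied by 0.995 in liver (6889 genes) and 1.34 in embryos (973 genes), and ratios used a pseudocount of 1, which understates differences of low genes. Genes named were those at least 2-fold apart, the most abundant, highest and lowest of each complex, members read in embryos, paralog groups and members listed at 0 in 1 library. Others were named after their values were seen, and the values of 1 member are not reported here. Members and lists were chosen with earlier results of these data known. Alternatives changed the pseudocount, filter, scaling, isoforms used, and centring by GC content or length. Scripts (python 3.11.15, pandas 2.3.3, scipy 1.17.1) were tested on simulated data.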

Additional observations from a re-analysis of the deposited data

Results flagged for a closer look

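Uqcrq, a small subunit of complex III, had log2 ratios of opposite sign in the tissues, 1.55 in embryos and -1.07 in liver. Its level was 42.2 and 93.9 FPKM in embryos and 67.9 and 32.0 FPKM in liver, with the library labelled Adar1-/- first. Over the alternatives run, its log2 ratio lay between 0.62 and 1.69 in embryos and between -1.38 and -0.64 in liver. Each tissue has 1 library per group, so the difference between tissues was not tested.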

How the results depend on the processing

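In liver, the count of 6 higher members was 19 with isoforms of status OK only, and the count of 7 lower members was 11 with TPM, 4 with an upper quartile factor, 13 with status OK only and 1 with GC centring. The liver median of 0.19 was -0.13 with TPM, 0.32 with an upper quartile factor, 0.32 with status OK only and 0.06 with length centring. The complex I median was -0.10 with TPM, and with status OK only complexes II, III and V had -1.83, -1.26 and 1.45, over 3, 5 and 11 genes. In embryos, 0 members were higher with TPM and 3 with status OK only, and 4 and 1 were lower. The embryo median was -0.48 as deposited and -0.99 with TPM, and the liver over embryo median under the Adar1-/- label was -2.26 with TPM. Ndufa13 at -1.65 and Ndufv2 at -0.64 reversed with reference isoforms only, and Ndufb2 at -2.21 with status OK only. Status OK only drops isoforms and left 58 counted members in liver. The cause of the other shifts was not tested. Shares of all genes under these settings are not given, so the counts of members are not set against them.

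No paired analysis was possible because each group has 1 library. A member at a few FPKM rests on few fragments.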
